A study of Mus musculus with 6 samples.

Results

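Stromal cells of the lymph node supply cytokines on which lymphocytes and myeloid cells depend, and 9 such genes were followed here. They were chosen by name: Il7, Il15, Tslp, Tnfsf13b, Flt3l, Il33, Kitl, Csf1 and Il34, out of 19938 genes that had an array entry of their own. Each of the 9 had a single entry. Levels were measured with Affymetrix expression arrays and are given as log2 of the deposited intensity, and a difference of 1 on that scale is a doubling of the intensity.

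The study placed primary cells beside a pair of cell lines. Mouse embryonic fibroblasts (MEFs) came from C57BL/6JJcl embryos (E11.5-13.5) and were cultured. The lymph node (LN) stromal fraction was sorted from adult C57BL/6JJcl mice as cells without CD45 (the leukocyte antigen) and CD31 (the endothelial antigen) and with podoplanin and VCAM-1. The lines BLS4 and BLS12 were derived from adult BALB/cA lymph nodes. Each line was measured unstimulated and after 2 days with 1 µg/ml of an agonistic antibody to the lymphotoxin beta receptor (LTβR), raised in goat and polyclonal. There was no control antibody, so effects of goat antibody outside LTβR were not separated. Each of the 6 cultures or fractions was measured on 1 array. The lines therefore stand in for LN stroma as cultured cells of another mouse strain. Between a line and LN stroma, strain, culture and cell source cannot be told apart. Between a line and the MEFs, which were also cultured, strain, age and cell source cannot be told apart.

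Interleukin 7 (IL-7) and IL-15 keep naive and memory lymphocytes alive, and BAFF, the product of Tnfsf13b, does the same for B cells. Flt3 ligand sustains dendritic cells and their progenitors, Kit ligand (stem cell factor) sustains mast cells and haematopoietic progenitors, and CSF-1 and IL-34 share the receptor CSF1R on macrophages. IL-33 is a nuclear alarmin read through ST2, and thymic stromal lymphopoietin (TSLP) acts on dendritic cells and lymphocytes. LTβR signals mainly through NF-κB-inducing kinase to p52 and RelB, and also through the canonical NF-κB subunits.

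Promoter sequence was taken for 5 of the 9 genes from the RefSeq table of build GRCm38.p6, which held 7 start sites for them. Il7, Il15 and Il34 had no window there, and none was searched for Tslp. The 160 bases before 5 of those starts are shown, because the comparisons below turn on these genes and because NF-κB and interferon-type motifs can be read in them directly. Capitals mark matches, on either strand, to the κB consensus, to a pair of GAAA separated by any 2 bases (an interferon-regulatory-factor type element), to TATAAA and to GGGCGG. The motifs were chosen after the sequences had been seen, and the last base printed is the base before the start.
Il33, second start, chr19:29945630-29945789, plus strand: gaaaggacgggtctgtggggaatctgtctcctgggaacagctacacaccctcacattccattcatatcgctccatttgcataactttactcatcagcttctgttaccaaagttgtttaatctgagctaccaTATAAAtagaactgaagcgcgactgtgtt
Csf1, chr3:107760470-107760629, minus strand: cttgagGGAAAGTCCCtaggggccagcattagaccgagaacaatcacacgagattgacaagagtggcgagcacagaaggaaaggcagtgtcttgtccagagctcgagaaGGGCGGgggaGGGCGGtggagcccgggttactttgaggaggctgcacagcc
Kitl, chr10:100015661-100015820, plus strand: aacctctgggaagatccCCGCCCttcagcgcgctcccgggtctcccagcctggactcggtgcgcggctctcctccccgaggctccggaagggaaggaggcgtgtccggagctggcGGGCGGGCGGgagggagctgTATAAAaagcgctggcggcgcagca
Flt3l, chr7:45136433-45136592, minus strand: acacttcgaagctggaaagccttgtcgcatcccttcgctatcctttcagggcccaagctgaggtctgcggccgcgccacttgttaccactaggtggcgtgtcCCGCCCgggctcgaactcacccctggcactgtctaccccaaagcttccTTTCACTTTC
Tnfsf13b, second start, chr8:10006473-10006632, plus strand: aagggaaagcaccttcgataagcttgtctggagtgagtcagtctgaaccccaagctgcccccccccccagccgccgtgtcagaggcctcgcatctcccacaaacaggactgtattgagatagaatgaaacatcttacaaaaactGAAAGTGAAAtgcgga

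Over the 250 bases before each start, Csf1 held 1 κB match, from 154 to 145 bases before the start, and it was the only gene of the 5 with one. That motif occurred in 3.90% of the 32851 windows of the table. Flt3l had the GAAA pair at 10 to 1 bases and Tnfsf13b at 16 to 7 bases before the start, against 2.98% of all windows. Kitl had TATAAA at 25 to 20 bases and the second start of Il33 at 29 to 24 bases, and the first start of Il33 had one at 203 to 198 bases, against 12.4% of all windows. GGGCGG, the core of a GC box, was present in Csf1, Kitl and Flt3l, with an overlapping pair in Kitl, and in 32.7% of all windows. A match is a string of letters in a window, and no binding was measured.

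The labelled cell types were checked against their markers. All 12 stromal markers with an entry lay at or above the array median in the LN fraction, 11 in MEFs and 11 or 12 on each line array. That count did not separate the arrays. Of the genes of the sorting antigens, Pdpn had 10.2 in the fraction and 10.4 to 11.7 elsewhere, and Vcam1 had 11.9 and 9.83 to 11.3. The zone chemokines separated the fraction from the lines: Cxcl13 had 12.8 in the fraction and 4.69 to 6.14 in the lines, and Ccl19 had 12.5 and 6.04 to 6.39. Endothelial markers were not absent from the fraction, in which 8 of 11 reached the median and their summed intensity was 888, against 849 in MEFs and 448 to 505 in the lines. Pecam1, which encodes the CD31 used to exclude endothelium, had 6.44 in the fraction and at most 5.08 elsewhere. Ptprc, which encodes the excluded CD45, had 5.70 in the fraction and at most 5.26 elsewhere, below the median on every array. None of 9 lymphocyte markers reached the median in the fraction, where they summed to 305 against 238 to 282.5 elsewhere. Myeloid markers were high in MEFs, with 10 of 12 at the median and a sum of 2618, against 3 of 12 and 767.5 in the fraction and 777.5 to 1992 in the lines. The part of these markers in the results below was not tested.

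Of the 6 arrays, LN stroma had the highest level for 7 of the 9 cytokines, BLS4 for Csf1 and BLS12 for Kitl. Il7 had 9.13 in LN stroma, 5.44 in MEFs, 3.89 and 4.10 in unstimulated BLS4 and BLS12, and 4.25 and 5.40 in the same lines with antibody. Only LN stroma lay above its array median, which was between 5.69 and 5.82 on the 6 arrays. Il15 ran from 3.66 in unstimulated BLS4 to 5.46 in LN stroma, and Tslp from 3.70 in MEFs to 4.90 in LN stroma, so neither reached the median on any array.

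Tnfsf13b had 10.48 in LN stroma, 4.94 in MEFs, 6.98 and 6.63 in unstimulated BLS4 and BLS12, and 7.81 and 6.78 with antibody. The lines thus lay between the primary populations for this B cell factor. Flt3l, the dendritic cell factor, had 9.68 in LN stroma and kept to 5.67 in MEFs and 6.09 to 6.43 across the 4 line arrays. Il33 had 11.61 in LN stroma, 4.80 in MEFs, 5.16 and 5.47 in BLS4 without and with antibody, and 7.60 and 7.75 in BLS12. It split the lines: BLS4 stood near MEFs and below the median, and BLS12 stood well above both.

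Kitl was above the median everywhere. It had 11.07 in unstimulated BLS12 and 9.54 with antibody, 8.91 in LN stroma, 8.52 in unstimulated BLS4 and 7.96 with antibody, and 7.15 in MEFs. Csf1, the main macrophage growth factor, was also above the median everywhere and spanned only 1.79, against 3.92 for Kitl, with 11.41 and 11.39 in BLS4, 10.27 in LN stroma, 10.19 in MEFs, and 9.62 and 9.65 in BLS12. Il34, the other CSF1R ligand, had 7.29 in LN stroma and 5.62 to 6.14 elsewhere.

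**Figure D1:**
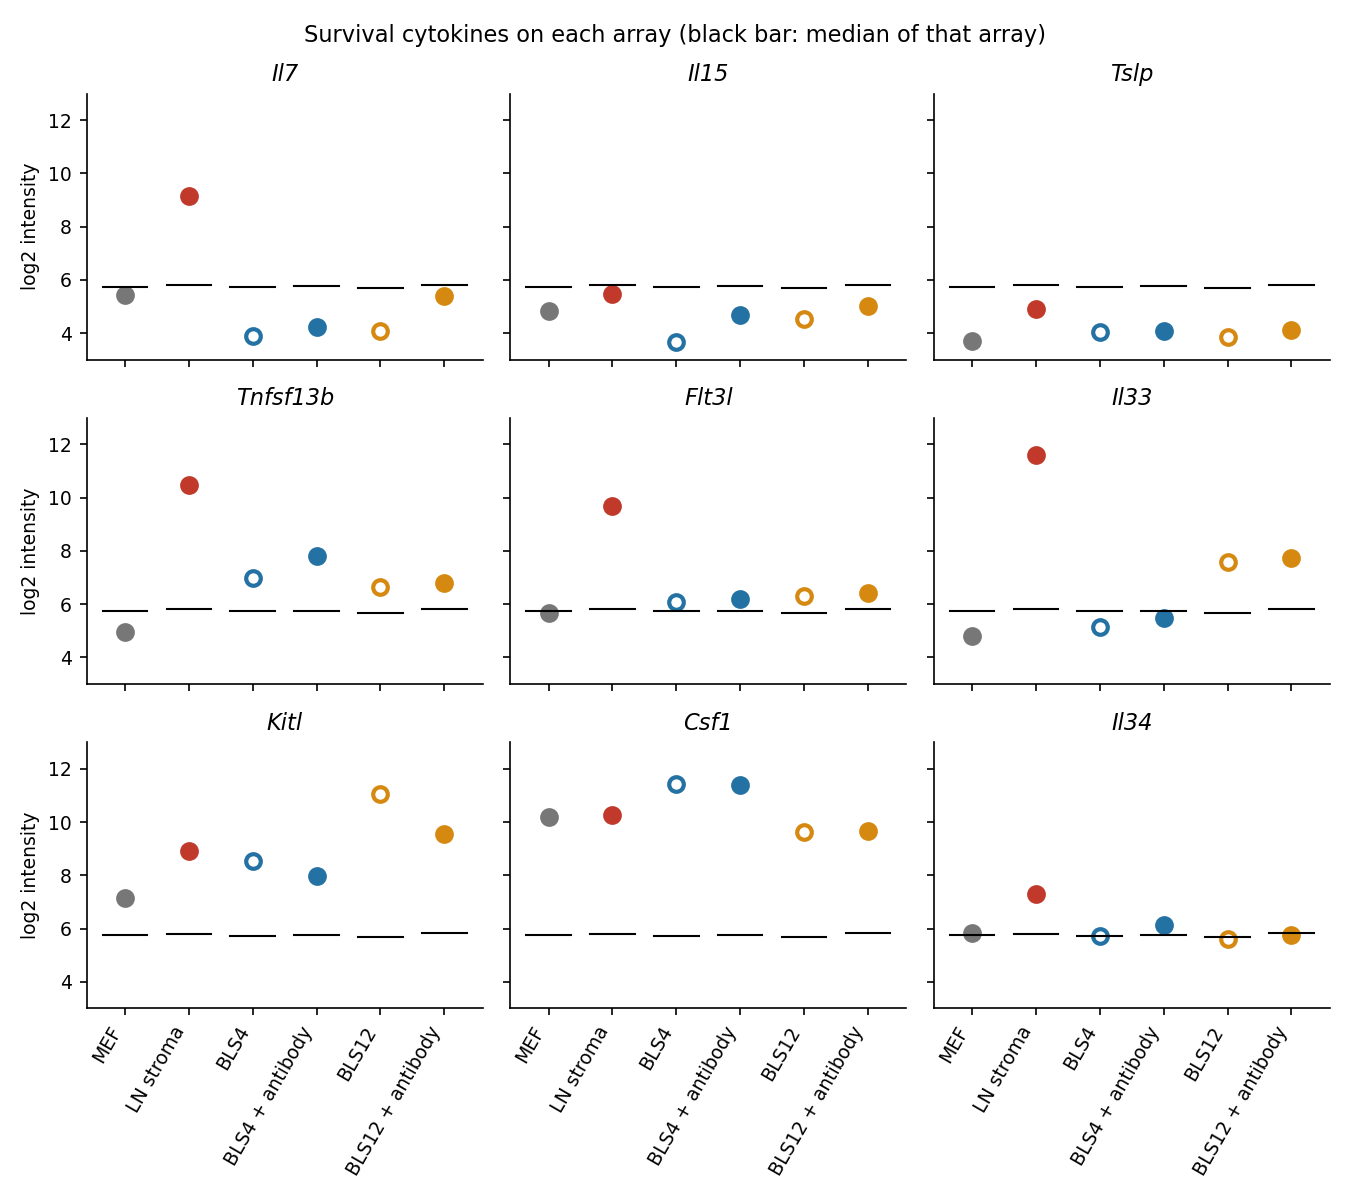
Log2 intensity of the 9 cytokine genes on each of the 6 arrays, with 1 point per array and the array median as reference. Il7, Il33, Flt3l and Tnfsf13b peak in LN stroma at 9.13 to 11.61, Csf1 stays between 9.62 and 11.41, and Il15 and Tslp lie below the median throughout.

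Which neighbours in each order stand apart was read against the spread of the cell line fit. A gap of up to 0.43 was taken as covered, which is 2 times the SD of a difference in that fit. More was covered where the gene's own fitted error was larger. LN stroma and MEFs were not in that fit, so their own spread was not measured and the size is only a yardstick for them. LN stroma led its next array by more than the gap covered for 6 of the 7 cytokines it headed. Among them was Tslp, which lay below the median on every array. For Il15 its lead of 0.45 was within the 0.48 covered. Below LN stroma, Il34, Flt3l and Tslp showed no neighbouring gap beyond the spread. Csf1 formed 3 steps, BLS4 with or without antibody, then LN stroma with MEFs, then BLS12 with or without antibody. For Kitl, where 0.70 was covered, unstimulated BLS12 stood above and MEFs below, and no neighbouring gap among the other 4 arrays was beyond the spread.

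LN stroma against MEFs sets sorted adult node cells beside cultured embryonic fibroblasts, so age, tissue and culture cannot be told apart in it. Il33 was 112-fold higher in LN stroma (difference 6.81), Tnfsf13b 46.7-fold (5.54), Flt3l 16.2-fold (4.02) and Il7 12.9-fold (3.69). These were the 4 of 9 genes at least 4-fold higher, a size that 4.64% of 12613 genes kept for this pair reached, and none was at least 4-fold lower, against 2.93%. All 4 passed the filter on low values only through the LN array, and 2 of the 9, Il15 and Tslp, did not pass it. Since their MEF values were below the array median, the folds depend on how low values are treated: with an offset of 16 added to each intensity they were 71.8 for Il33, 31.0 for Tnfsf13b, 12.5 for Flt3l and 9.70 for Il7. Kitl differed by 1.76, Il34 by 1.45, Tslp by 1.20, Il15 by 0.63 and Csf1 by 0.08, the last within the spread of the cell line fit. The median difference over all 9 was 1.76, beside -0.0068 over all 19938 genes. With 1 array a side there is no test, and in bulk cells a larger share of expressing cells and more RNA per cell cannot be told apart.

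Against the unstimulated lines the same 4 genes were at least 4-fold higher in LN stroma, whichever line was taken. Il7 exceeded BLS4 by 5.24 and BLS12 by 5.03, or 37.7- and 32.7-fold, and 18.7- and 17.4-fold with the offset. Il33 exceeded them by 6.46 and 4.01, Tnfsf13b by 3.51 and 3.85, and Flt3l by 3.59 and 3.39. That size was reached by 3.52% of 12827 genes in the higher and 0.569% in the lower direction, which held no cytokine. Il7 and 1 other cytokine, Il34, passed the filter here only through the LN array. Kitl differed by -2.16 from BLS12 and by 0.39, within the spread, from BLS4. Csf1 was lower in LN stroma than in BLS4, at -1.14, and higher than in BLS12, at 0.65.

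The distances to the antibody-treated lines were also beyond 4-fold for these genes. Set against the treated lines, LN stroma was higher by 4.89 and 3.73 for Il7, 6.14 and 3.87 for Il33, 2.67 and 3.70 for Tnfsf13b, and 3.47 and 3.25 for Flt3l, in BLS4 and BLS12 in that order. The 4 were again the genes at least 4-fold higher, against 3.44% of 12675 genes, and the count lower was 0 against 0.647%. Il7 passed the filter only through the LN array here too, and with the offset its differences were 4.04 and 3.31. For Kitl the differences were 0.95 and -0.62. The 3 LN comparisons share the LN array, so their values stand side by side and do not support each other.

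**Figure D2:**
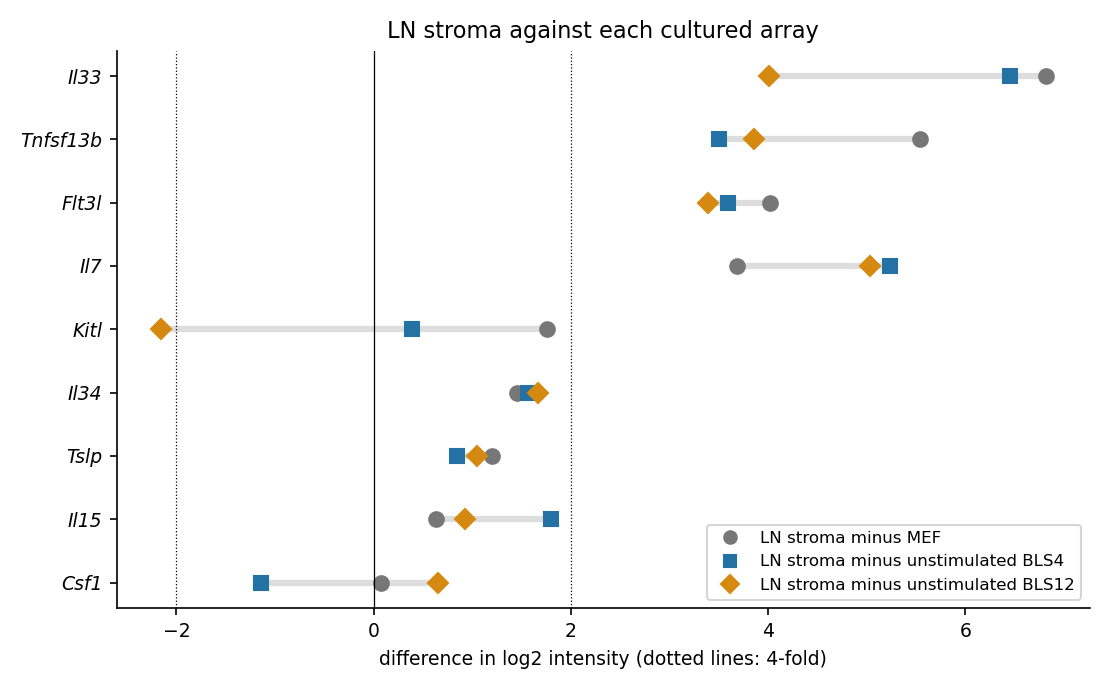
Difference in log2 intensity of each cytokine between LN stroma and MEFs (circles), unstimulated BLS4 (squares) and unstimulated BLS12 (diamonds), with dotted lines at 4-fold. Il7, Il33, Flt3l and Tnfsf13b lie at 3.39 or above in every pair, and Kitl and Csf1 have values on both sides of 0.

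Against MEFs, with which they share the cultured state, the unstimulated lines had no cytokine at least 4-fold apart in both lines, where 0.308% of 12676 genes were higher and 1.14% lower by that size. Tnfsf13b came nearest, with 2.04 in BLS4 and 1.69 in BLS12. In BLS12 alone Kitl was 15.1-fold and Il33 6.98-fold above MEFs, whereas BLS4 differed by 1.37 and 0.36. Il7 was below MEFs in both lines, by -1.55 and -1.34, with all 3 arrays below the median.

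The lines differed from each other in 3 of the 5 cytokines that passed the filter, in a limma model of cell line and antibody over 4 arrays. Il33 was 5.14-fold higher in BLS12, with a difference of 2.45 unstimulated and 2.28 treated, a mean of 2.36 (SE 0.142) and a limma adjusted p of 0.000819. Kitl was 4.16-fold higher in BLS12, with 2.54 unstimulated and 1.57 treated, a mean of 2.06 (SE 0.247) and a limma adjusted p of 0.00546. Csf1 was 3.39-fold higher in BLS4, with -1.79 and -1.74 (BLS12 minus BLS4), a mean of -1.76 (SE 0.137) and a limma adjusted p of 0.00154. The alarmin and the mast cell factor thus stood higher in one line and the macrophage factor in the other. Epithelial and mesothelial markers moved with the line as well: of 10 listed 6 were tested and 4 were higher in BLS12, Upk3b by 3.06, Msln by 1.90, Krt19 by 1.34 and Wt1 by 0.56 (limma adjusted p 0.00315, 0.00412, 0.0154 and 0.0456). Their summed intensity was 2084 and 1110 in BLS12 without and with antibody, against 578 and 548 in BLS4, while the epithelial marker Epcam was below the median on all 4 line arrays. Of 11 stromal markers tested, Dcn, Thy1, Vcam1 and Col3a1 were higher in BLS12 and Pdgfrb in BLS4. Without antibody in the model the calls for Krt19, Wt1, Vcam1 and Col3a1 were lost (limma adjusted p 0.0621, 0.0931, 0.110 and 0.299), and Wt1 passed in 4 of 8 other settings. The part of these markers in the line differences was not tested.

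Line differences were common: 23.6% of the 11988 genes tested passed, 12.2% higher in BLS12 and 11.4% higher in BLS4. At an unadjusted p under 0.05 the count was 4 of 5 cytokines, against 38.8%. Tnfsf13b was -0.69 (SE 0.199, limma adjusted p 0.0585) and Flt3l 0.21 (SE 0.137, limma adjusted p 0.325), neither of which passed. Il7, Il15, Il34 and Tslp were below the filter, which asked for 2 of the 4 line arrays at or above the median. They differed by 0.20, 0.88, -0.11 and -0.20 without antibody and by 1.15, 0.33, -0.40 and 0.01 with it. Without antibody in the model the call for Kitl was lost (limma adjusted p 0.0747), and it was kept in the 7 other settings tried, from 0.00122. The labels do not say whether arrays came from separate cultures. With 1 array per line and treatment, the residual of the model with both terms is how unequal the antibody difference was in the lines. Every p of that model rests on this residual and the prior spread over all genes. None measures a spread between repeat cultures or arrays.

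**Figure D3:**
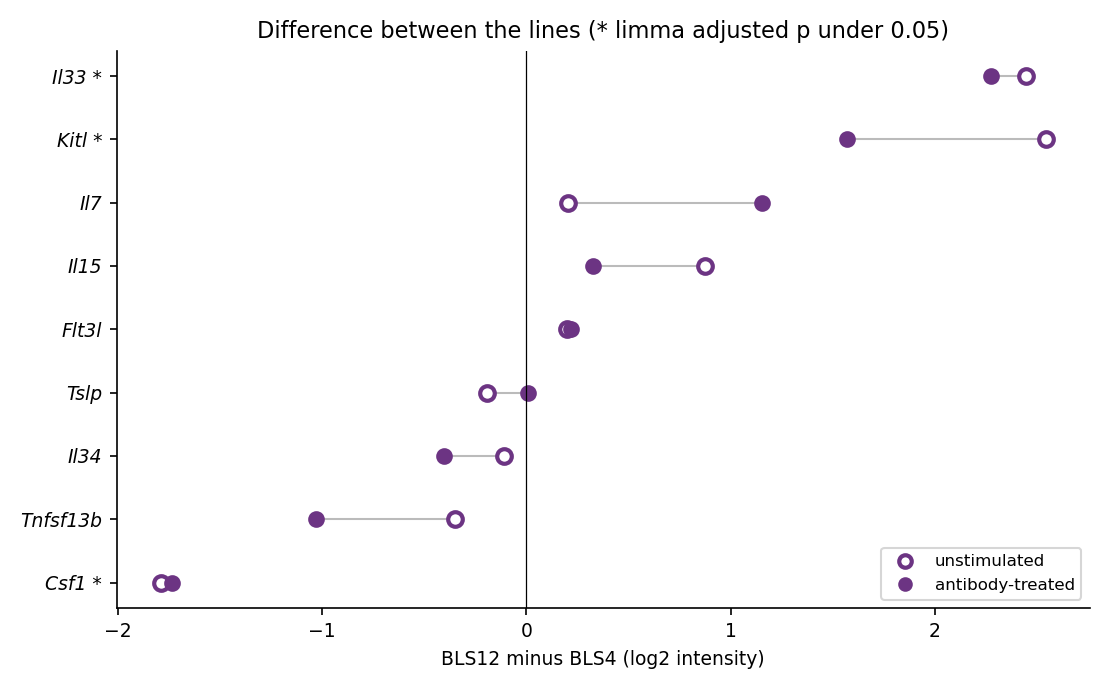
Log2 difference between BLS12 and BLS4 for each cytokine, without antibody (open points) and with it (filled points), where an asterisk marks a limma adjusted p under 0.05. Il33 and Kitl lie above 0 at 1.57 to 2.54, Csf1 lies near -1.76, and the remaining genes are closer to 0.

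No cytokine passed the test of the antibody, which asks whether LTβR activation alters these genes in adult stromal lines. Of 5 genes tested 0 were called, against 0.275% of 11988 genes, or 0.200% higher and 0.0751% lower. At that share a count of 0 of 5 does not set the cytokines apart from other genes. At an unadjusted p under 0.05 the count was 1, Kitl, against 11.6%. Kitl was 1.48-fold lower in treated BLS4 and 2.89-fold lower in treated BLS12, with differences of -0.56 and -1.53, a mean of -1.05 (SE 0.247), an unadjusted p of 0.00632 and a limma adjusted p of 0.200. It was lower with antibody in both lines, beyond the 0.70 covered for Kitl in BLS12 and within it in BLS4. Of the 6 epithelial and mesothelial markers tested, Upk3b, Msln and Krt19 had -0.29, -0.16 and -0.0047 in BLS4 and -1.56, -0.89 and -0.92 in BLS12. Krt8 had -0.23 in BLS4 and -0.26 in BLS12. Wt1 and Krt18 went the other way, with 0.08 and 0.14 in BLS4 and 0.34 and 0.19 in BLS12. None of the 6 passed for the antibody, and their part in the Kitl values was not tested. In BLS12, 2.13% of genes were lower by at least 2-fold, and in BLS4 0.601%.

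Tnfsf13b had 0.83 in BLS4 and 0.15 in BLS12, a mean of 0.49 (SE 0.199) and a limma adjusted p of 0.432. Il33 had 0.31 and 0.14, a mean of 0.23 (SE 0.142, limma adjusted p 0.598), and Flt3l 0.12 and 0.14, a mean of 0.13 (SE 0.137, limma adjusted p 0.774). Csf1, the gene whose promoter window held the κB match, had -0.03 and 0.03, a mean of 0.0023 (SE 0.137, limma adjusted p 0.996). Both values lay within the spread of the cell line fit, and the sign of its mean turned when the array medians were set equal.

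The genes below the filter were not tested in that model. Il7 had 0.35 in BLS4 and 1.30 in BLS12, and Il15 had 1.02 and 0.47. Of the genes tested, 0.968% were at least 2-fold higher in BLS4 and 1.60% in BLS12, but those genes had passed the filter. With the offset of 16 the differences were 0.18 and 0.81 for Il7 and 0.54 and 0.30 for Il15. The levels of Il7 and Il15 with antibody, at most 5.40 and 5.01, remained below the array median. Il34 had 0.41 and 0.12, and Tslp 0.05 and 0.25. When every gene was tested without the filter, the limma adjusted p was 0.314 for Il7, 0.215 for Il15, 0.633 for Il34 and 0.799 for Tslp.

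By sign alone, 7 of the 9 were higher with antibody in both lines and 1, Kitl, was lower, where 29.8% and 26.7% of all genes were. The treated BLS12 array had a median 0.13 above the unstimulated one, and with the array medians set equal Il34 in BLS12 became -0.01 and the counts 6 and 2. Those still higher had 1.17 (Il7), 0.34 (Il15), 0.12 (Tslp), 0.021 (Tnfsf13b), 0.013 (Il33) and 0.0088 (Flt3l) in BLS12. The shares of all genes were not computed for that setting. The median antibody difference over the 9 was 0.23, beside 0.0061 over all genes.

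**Figure D4:**
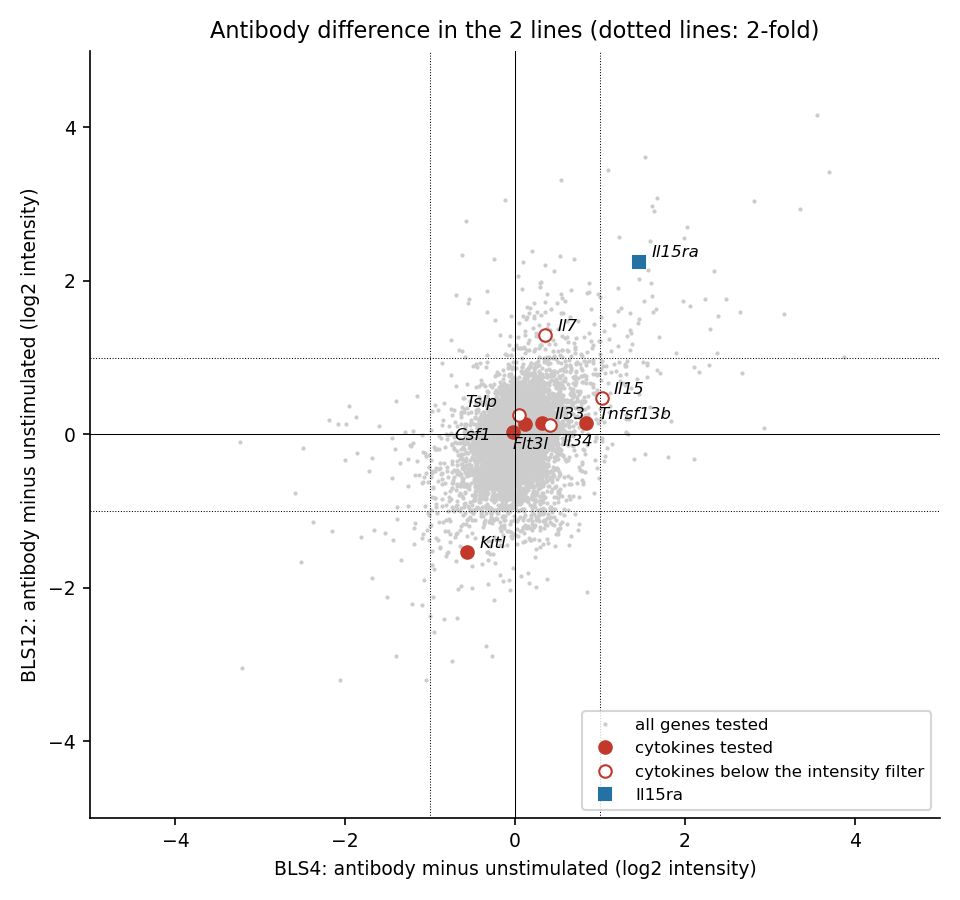
Antibody difference in log2 intensity in BLS4 (horizontal) and BLS12 (vertical), with the genes tested in grey, cytokines tested filled, cytokines below the filter open, Il15ra as a square and dotted lines at 2-fold. Kitl lies at -0.56 and -1.53, Csf1 lies at the origin, and Il7 and Il15 each pass the 2-fold line in 1 of the lines.

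Some genes of LTβR signalling did pass the test in the same cells, from a list chosen with earlier results of these data known. Of 14 listed LTβR and NF-κB genes 11 had an entry and were tested, with a median of 1.96 over the 11. Among the 11, 4 passed as higher and none as lower, against 0.200% and 0.0751% of all genes tested. The risers were Nfkbie (2.93, limma adjusted p 0.00573), Birc3 (2.24, limma adjusted p 0.0162), Tnfaip3 (2.36, limma adjusted p 0.0305) and Nfkbia (2.00, limma adjusted p 0.0305), which encode inhibitors and feedback regulators of NF-κB. The calls for Tnfaip3 and Nfkbia held in 5 of 8 other settings, with limma adjusted p up to 1.00, and were lost with the offset of 16, after quantile normalization and without cell line in the model. The last setting also ended the calls for Nfkbie, Birc3 and Mmp9 below. Nfkb2, the p52 precursor, and Birc2 had 1.96 and 2.06 and missed the threshold (limma adjusted p 0.0527 and 0.0528). Birc2 (0.63 unstimulated and 1.56 treated, limma adjusted p 0.0271) and Tnfaip3 (mean 0.75, limma adjusted p 0.0474) were higher in BLS12 than in BLS4, calls that held in 6 and 4 of 8 other settings, with limma adjusted p up to 0.490 and 0.684. LN stroma exceeded MEFs by 2.95 to 4.48 for Birc2, Birc3, Nfkbie, Nfkbia and Tnfaip3, and exceeded both unstimulated lines by at least 4-fold for the last 4 of these. Against both treated lines only Nfkbia of the list was at least 4-fold higher, by 2.24 and 2.45. That size was reached by 4.64%, 3.52% and 3.44% of the genes kept in these comparisons, in that order.

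Of 14 listed receptors of the cytokines, 12 had an entry, 5 passed the filter and were tested, and 0 passed for the antibody. Il15ra, which encodes the chain that presents IL-15 to neighbouring cells, had 6.46 in MEFs, 7.68 in LN stroma, 6.10 and 7.57 in BLS4 without and with antibody, and 6.14 and 8.39 in BLS12. Its antibody differences of 1.46 and 2.25 gave a mean of 1.86 (SE 0.216) and a limma adjusted p of 0.0528. It passed in 3 of 8 other settings, with limma adjusted p from 0.0110 to 1.00. The chain thus had higher values in both treated lines while Il15 itself lay below the median. Il1rap, the shared IL-33 receptor chain, was higher in BLS4 by the line test (-0.74, limma adjusted p 0.0372), a call lost without antibody in the model (0.0802). Ptprz1, an alternative IL-34 receptor, was the only receptor at least 4-fold apart between LN stroma and MEFs, at -3.92, with 3.53 and 7.45. In BLS12 it had 7.35 without antibody and 4.62 with it, and in BLS4 3.75 and 3.40, but it was below the filter.

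Proteases that shed or process the cytokines were listed with 11 genes, of which 8 were tested. Mmp9, a gelatinase known to release membrane-bound Kit ligand, rose by 3.56 with antibody (SE 0.149, limma adjusted p 0.00573), from 5.82 to 9.52 in BLS4 and from 6.64 to 10.06 in BLS12. No protease passed the test as lower with antibody. Adam17, the main sheddase of cytokines such as CSF-1, had 0.48 (limma adjusted p 0.290). Pcsk6 was lower with antibody in both lines, with -0.77 in BLS4 and -1.40 in BLS12. Its mean of -1.09 did not pass (limma adjusted p 0.116). Between the lines, Pcsk5 (1.30, limma adjusted p 0.00692) and Mmp9 (0.68, limma adjusted p 0.0278) were higher in BLS12 and Furin, the convertase that cleaves BAFF, was higher in BLS4 (-0.91, limma adjusted p 0.0100). The line call for Mmp9 was lost without antibody in the model (limma adjusted p 0.815). None of the 11 was at least 4-fold apart between LN stroma and MEFs, or between LN stroma and both lines.

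Other survival and growth cytokines, 23 listed and 21 with an entry, gave the 9 a setting. Of 12 tested none passed for the antibody, and 10 passed between the lines, against 0.275% and 23.6% of all genes tested. Higher in BLS12 were Il16 (3.35), Bmp4 (2.90), Lif (1.28), Tnfsf9 (1.02) and Il18 (0.82). Higher in BLS4 were Hgf (-2.44), Cxcl12 (-2.17), Il6 (-1.86), Tnfrsf11b (-1.48) and Fgf7 (-1.45), where Cxcl12 is the plasma cell and progenitor chemokine and Tnfrsf11b the decoy receptor of RANKL. Without antibody in the model the calls for Lif, Tnfsf9, Il18 and Il6 were lost (limma adjusted p 0.0866, 0.0662, 0.130 and 0.0708), and that for Lif also with the offset and after quantile normalization. LN stroma exceeded MEFs by at least 4-fold for 7 of 13 genes kept, against 4.64% of all genes kept. They were Il6 (7.80), Hgf (3.79), Lif (2.70), Cxcl12 (2.57), Igf1 (2.45), Pgf (2.42) and Tnfsf9 (2.38). Tnfrsf11b was lower at -2.16, against 2.93%. Il6, Hgf and Tnfsf9 passed the filter here only through the LN array. Against both unstimulated lines Il6, Lif, Pgf and Angpt1 were higher in LN stroma, by 2.43 to 6.86, and against both treated lines these and Igf1 (2.24 and 2.01). The shares of all genes kept were 3.52% and 3.44%, and Pgf and Angpt1 passed the filter only through the LN array both times. Hgf was the only one at least 4-fold above MEFs in both unstimulated lines, by 5.19 and 2.05, against 0.308%.

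**Figure D5:**
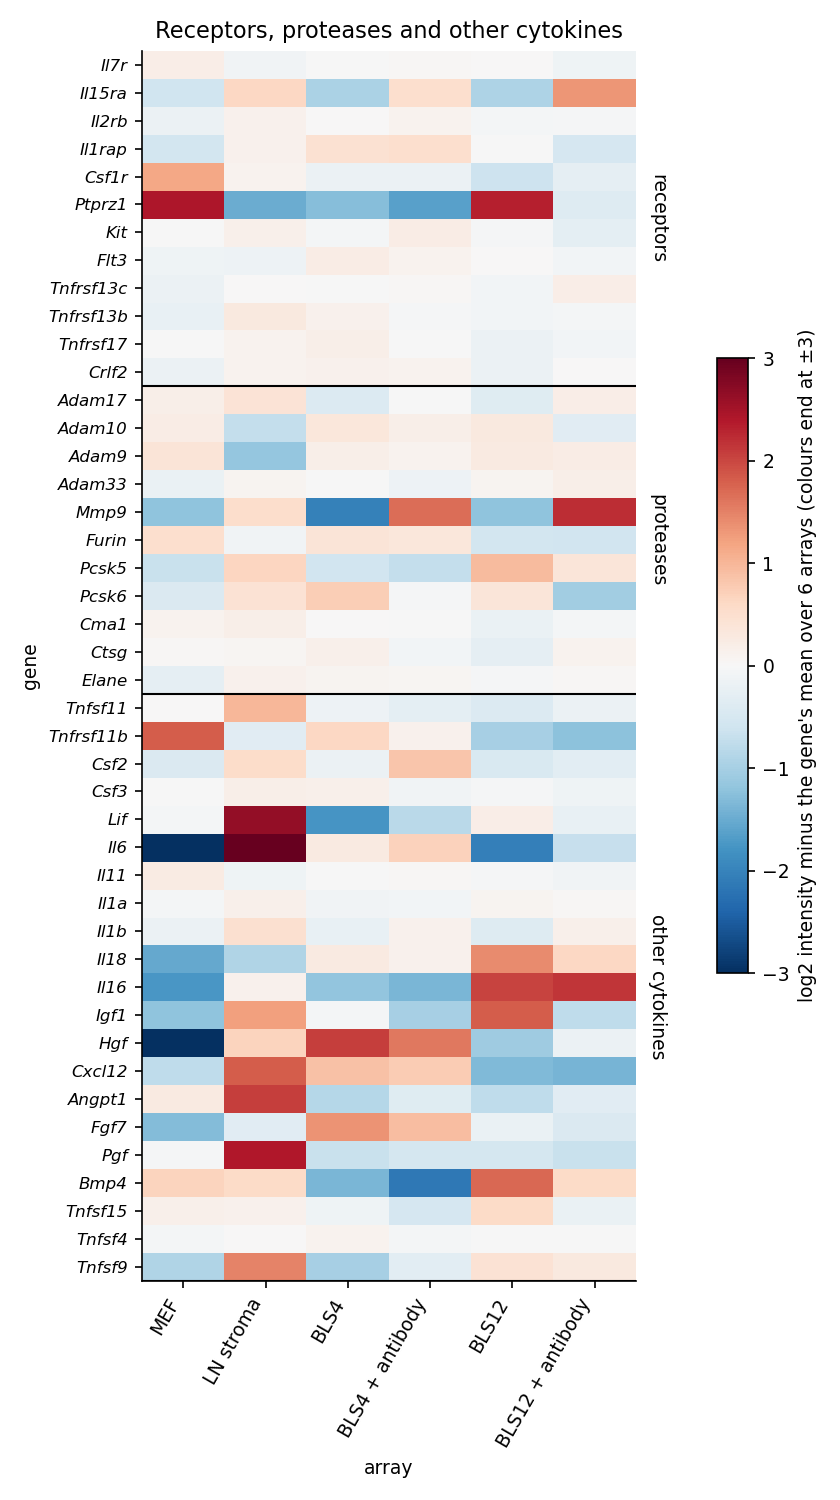
Log2 intensity minus the gene's mean over the 6 arrays, as colour, for 12 receptors, 11 proteases and 21 other cytokines (rows) on each array (columns), with colours ending at 3 either way. Mmp9 and Il15ra are higher in both treated lines, Ptprz1 is high in MEFs and unstimulated BLS12, and Il6 has its lowest value in MEFs and its highest in LN stroma.

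Profiles most like each cytokine were sought among 5644 genes that varied by at least 1 log2 unit, by the root mean square difference of mean-centred levels over the 6 arrays. Il7 was nearest to Cldn1 (0.373), Btg2 (0.414) and Ltbp4 (0.431). Il33 was nearest to Ifi205 (0.482), Adh1 (0.514) and C2 (0.596), and Tnfsf13b to Slfn5 (0.470), Sp100 (0.478) and Cxcl1 (0.493). Flt3l was closer to its nearest, Pi16 (0.138), Il1r2 (0.159) and Cela2a (0.164), and these have 1 high array, LN stroma, in common with it. Kitl was nearest to Nid2 (0.306), Aldh1a1 (0.392) and Esr1 (0.397), and Csf1 to Tmem185a (0.117), Tspan17 (0.158) and Pcdh1 (0.187). Il15 was nearest to Papss2 (0.170), Taf4b (0.210) and Col18a1 (0.223). Il34 was nearest to Mosmo (0.0374), Uap1 (0.0900) and Sema3b (0.0995), and Tslp to Htra4 (0.0516), Eps8l1 (0.0657) and Nudt13 (0.0671). Among the cytokines themselves the closest pairs were Il34 with Tslp (0.274) and, among the genes highest in LN stroma by at least 4-fold, Flt3l with Tnfsf13b (0.706) and Il7 with Flt3l (0.798). The measure is not scaled to a gene's range, so genes that vary little can lie close to each other. Tslp spanned 1.20, Il34 1.67 and Il15 1.80, and Il15 and Tslp were below the median on every array. All of these distances rest on 6 arrays, 4 of them from a pair of lines.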

How the data were processed

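Total RNA of 6 mouse samples was hybridised to Affymetrix arrays. The authors deposited linear intensity values made with Affymetrix Expression Console 1.1, per the submitters' processing notes. The summary algorithm and genome build are not given in the sources used here. Of 35557 entries in the table, 21789 named 1 gene, 1621 several and 12147 none in the platform annotation. The brightest entry stood for a gene, and log2 was taken with no offset (lowest intensity 3.55). Precision is limited by the number of arrays.

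The 4 line arrays were fitted with limma 3.58.1 in R 4.3.3, with cell line and antibody as terms, over 11988 genes with at least 2 arrays at or above the array median. The fit had 1 residual degree of freedom and a prior SD of 0.151. The p-values were two-sided and adjusted by Benjamini-Hochberg over all genes, at 0.05. Arrays of the same line were paired by that line. Comparisons with 1 array a group used a 4-fold size, in both lines where lines took part, over genes with at least 1 array at or above its median. The fitting was tested on simulated data. The 9 genes and the lists were chosen with earlier results of these data known. All 9 were named whatever they did. From the 4 pathway lists, genes that passed a test, that differed at least 2-fold in both lines, or that were at least 4-fold apart in a comparison were named, with the 3 nearest profiles of each gene. Adam17, Pcsk6 and the marker genes given were named after their values were seen.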

Additional observations from a re-analysis of the deposited data

Results flagged for a closer look

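The antibody difference of Csf1 had opposite signs in the lines, -0.0251 in BLS4 and 0.0298 in BLS12. The difference of Tslp between BLS12 and BLS4 was -0.1955 without antibody and 0.0078 with it. Whether the effects differ was not tested, because the 4 arrays leave no residual degrees of freedom for an interaction of line and antibody.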

How the results depend on the processing

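With the other factor as the replicate block (cell line for the antibody test, antibody for the line test), 0 cytokines were called for the antibody and 3 between lines. With no replicate block the counts were 0 and 2. Leaving out a line, with a 2-fold size and no test, gave 0 to 1 for the antibody, the 1 being Kitl in BLS12 without BLS4. For the unstimulated lines against MEFs the count of 0 became 2 at 2-fold and 1 to 2 when a line was left out. The mean antibody difference of Csf1 became -0.0731 with array medians equal. Tnfsf13b passed between lines when all 4 arrays had to reach the median (limma adjusted p 0.0392, up to 0.190 in other settings). Over all genes the antibody gave 33 calls, and 98 with medians equal, 6 after quantile normalization, 6 with an offset of 16, 115 with the strict filter, 54 with no filter, 45 with an intensity trend and 0 with no replicate block. Between lines 2835 became 1428 with no replicate block. Of 298 values of the cytokines under alternatives, 60 were classed as moved from the main value. Of these, 22 moved with the offset of 16, 14 without BLS4 and 14 without BLS12. Of the 298, 1 lost its call, 1 gained one and 292 kept the sign of the main value. The 6 that turned were Csf1 in the antibody test, as above and at -0.0251 without BLS12, Tslp between treated lines at 0.0078, Csf1 without BLS4 at -0.57 for the lines minus MEFs and 0.65 for LN stroma minus the lines, and Kitl at 0.39 for LN stroma minus the lines without BLS12. Il7, Il15, Il34 and Tslp lay near the low end of the signal in the lines, which limits their differences there.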
